A study of Arabidopsis thaliana with 8 samples.

Results

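The cytochrome P450 family was followed in whole *Arabidopsis thaliana* seedlings raised in darkness across 4 groups that differed in genotype and zinc supply. Members were the genes with a P450 name of the form CYP, number, letters, number in the annotation of the array's probe sets, measured by a probe set given to that gene alone and lying in the upper 60% of probe sets by mean log2 intensity over the 8 arrays. CYP79F1, CYP79F2 and CYP83A1 were left out of the set by this rule. Of 22 P450 genes with a probe set of their own, 8 met the intensity limit, among 13648 probe sets that did so in all, which cover 7237 genes with a probe set of their own. Of these 8, 7 belong to the CYP71B subfamily (CYP71B5, CYP71B6, CYP71B23, CYP71B26, CYP71B28, CYP71B29 and CYP71B34), and CYP84A4 is the only one of another subfamily. The RefSeq annotation of the genome has 225 genes with such a name, so the 8 genes are mostly a view of CYP71B, and the P450s of hormone, sterol, cutin and camalexin synthesis are not analysed here.

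The 4 groups were the mutant dez given high zinc (100 µM), dez given control medium (1 µM zinc), called dez controls, wild type given high zinc, and wild type given control medium, called wild-type controls. All seedlings were 7 days old, were grown on plates of modified Hoagland's medium wrapped against light after a short exposure, and were frozen under dim green light. Each group had 2 biological replicates of about 45 pooled seedlings, with 1 Affymetrix ATH1 array per replicate, a chip that reads biotin-labelled RNA with short probes grouped into probe sets. The dez lesion is known to lie in TRICHOME BIREFRINGENCE, a gene of cell wall polysaccharide acetylation, while its allele and the wild-type accession are not given in the sources used here. Array medians lay between 34.9 and 37.4 in the deposited linear intensity, and the number of arrays limits the precision. Because whole seedlings were measured, fewer cells of a type and less RNA per cell cannot be told apart in any result below.

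Cytochrome P450s are haem enzymes, mostly held in the membrane of the endoplasmic reticulum, that insert oxygen into small molecules with electrons from a reductase partner. Plants have very many of them, and they build or break down hormones, sterols, pigments, wall and wax components and defence compounds. The CYP71B subfamily expanded in *Arabidopsis* and its relatives, partly as tandem copies. It includes PAD3 (CYP71B15), which completes the antimicrobial compound camalexin, and CYP71B6, which turns indole-3-acetonitrile into indole-3-carbaldehyde and indole-3-carboxylic acid. For most of the other members named here no role is given, while CYP84A4 takes part in making arabidopyrones, a side branch of phenylpropanoid metabolism.

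High zinc in dez moved 4 of the 8 genes, and these moved in opposite directions within 1 subfamily. CYP71B6 and CYP71B23 rose, and CYP71B34 and CYP71B29 fell, where differences are on the scale log2(intensity + 16) and a call is a limma adjusted p under 0.05 over all 13648 probe sets; with poly-A spike scaling, described further on, CYP71B29 lay at 0.10 and only the first pair was called. The background was high, since 34% of all tested probe sets were called in this comparison, 16.6% higher and 17.4% lower. A count of 4 in 8 genes is too small to be read as a share that differs from that background. The median difference of the 7 CYP71B genes was -0.16, against 0.01 over all tested probe sets, with a spread from -0.87 to 0.68.

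CYP71B6 (AT2G24180) had intensities of 655 and 526 in dez on high zinc and 410.2 and 338 in dez controls, against 335 and 273 in wild type on high zinc and 289.8 and 324 in wild-type controls. Both dez arrays on high zinc lay above each of the other 6. The zinc difference in dez was 0.63 ± 0.15 (SE, limma adjusted p = 0.00782), and the mean intensity was 1.58 times that of dez on control medium. This call was lost without dez high-Zn replicate 1 (0.48, adjusted p = 0.0795) and without dez control replicate 2 (0.50, adjusted p = 0.0813).

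CYP71B23 (AT3G26210) had intensities of 153 and 261 in dez on high zinc and 126 and 112 in dez controls, against 108 and 73.3 in wild type on high zinc and 93.0 and 97.1 in wild-type controls. The arrays of dez on high zinc were again the highest of the 8, but they differed from each other more than those of any other group. The zinc difference in dez was 0.68 ± 0.22 (limma adjusted p = 0.0319). It rests on few arrays: it was 0.33 without dez high-Zn replicate 2 (adjusted p = 0.259), 1.04 without dez high-Zn replicate 1 (adjusted p = 0.0065), and not called without dez control replicate 1 (0.76, adjusted p = 0.0794) or 2 (0.61, adjusted p = 0.153).

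CYP71B34 (AT3G26300) had intensities of 38.8 and 46.2 in dez on high zinc and 87.9 and 93.7 in dez controls, against 101 and 68.1 in wild type on high zinc and 110.1 and 98.4 in wild-type controls. The arrays of dez on high zinc were the lowest of the 8 and did not overlap any other group. The zinc difference in dez was -0.87 ± 0.15 (limma adjusted p = 0.00145), the largest of the 8 genes in size, and the mean intensity in dez on control medium was 2.14 times that on high zinc. The call held with each array left out in turn, with adjusted p up to 0.0214, but scaled to the poly-A spike controls, RNAs added during labelling, the difference was -0.46 and no longer called (adjusted p = 0.409).

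CYP71B29 (AT1G13100) had intensities of 46.1 and 46.6 in dez on high zinc and 62.1 and 61.2 in dez controls, against 57.6 and 58.6 in wild type on high zinc and 78.5 and 66.1 in wild-type controls. In both genotypes the arrays on high zinc lay below those on control medium, and in both media dez lay below wild type as deposited. The zinc difference in dez was -0.32 ± 0.11 (limma adjusted p = 0.0407). It was 0.10 with poly-A spike scaling, and it was not called when any 1 of the 4 dez arrays was left out. In wild type it was -0.25 ± 0.11 and did not pass (limma adjusted p = 0.399).

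The remaining members gave no call for zinc in dez. CYP71B26 (AT3G26290) had 31.5 and 34.8 in dez on high zinc, against 44.3 and 40.9 in dez on control medium, a difference of -0.25 with a 95% interval from -0.47 to -0.04 (limma adjusted p = 0.0688), which was 0.16 under poly-A spike scaling. Its arrays did not overlap between these groups, and dez on control medium was the highest of the 4 groups, with wild type at 33.7 to 37.7 over both media. CYP71B28 (AT1G13090) had 42.4 and 33.7 in dez on high zinc, against 43.2 and 44.97 in dez on control medium, with an interval from -0.40 to 0.09, and wild type had 38.0 to 44.2. CYP71B5 (AT3G53280) had 44.9 and 39.95 in dez on high zinc, against 47.8 and 45.9 in dez on control medium, with an interval from -0.35 to 0.14, and wild type had 39.4 to 48.9. CYP84A4 (AT5G04330), the arabidopyrone enzyme, had 31.8 and 24.97 in dez on high zinc, against 34.6 and 28.3 in dez on control medium, with overlapping arrays and an interval from -0.37 to 0.18, and wild type had 30.4 to 39.9. These intervals bound a change in these 3 genes to at most 0.40 log2 units in size as deposited, while with poly-A spike scaling all 3 differences were above 0 and not called.

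**Figure D1:**
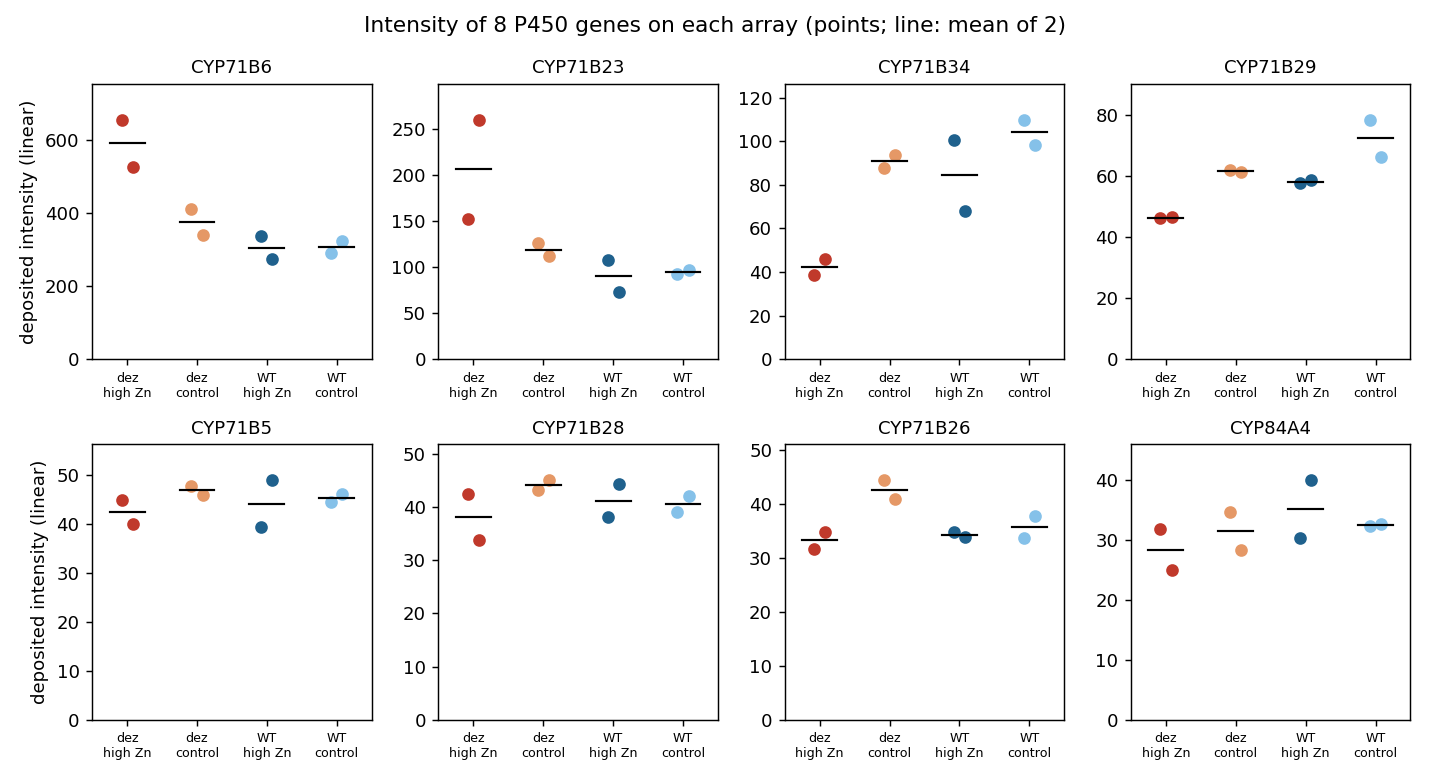
Deposited linear intensity (vertical axes, each from 0) of the 8 P450 genes in the 4 groups (horizontal axes). Points are the 2 arrays of a group and the line is their mean. CYP71B6 and CYP71B23 are highest in dez on high zinc, and the group mean of every other gene is lowest there. Of these others only CYP71B34 and CYP71B29 were called with zinc in dez. Their lower levels are relative to the other transcripts and were not called under poly-A spike scaling, where the CYP71B29 difference was 0.10.

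In wild type, high zinc moved none of the 8 genes past the threshold of limma's test, where 0.703% of all tested probe sets were called, 0.462% higher and 0.242% lower. At an unadjusted p under 0.05 the count was 1 (CYP71B29), and the share of all tested probe sets at that threshold was not counted. The arrays of wild type on high zinc and on control medium overlapped in the other 7, and the share of all tested probe sets that did so was not counted. CYP71B6 differed by -0.02 ± 0.15, with a 95% interval from -0.35 to 0.31, and CYP71B23 by -0.08 ± 0.22, with an interval from -0.56 to 0.40. CYP71B34 differed by -0.28 ± 0.15 (limma adjusted p = 0.534), and its wild-type arrays on high zinc, at 101 and 68.1, stood far apart.

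Whether zinc acted differently in dez than in wild type was asked with the interaction, the zinc difference in dez minus that in wild type. None of the 8 genes passed limma's interaction test at an adjusted p under 0.05, against 19.4% of all tested probe sets, 8.87% positive and 10.6% negative. At an unadjusted p under 0.05 there were 3. The share of all tested probe sets at that unadjusted threshold was not counted, so the 3 are not read as a result. CYP71B6 came nearest, at 0.65 ± 0.21 (limma adjusted p = 0.0546), followed by CYP71B34 at -0.59 ± 0.22 (adjusted p = 0.0824) and CYP71B23 at 0.76 ± 0.30 (adjusted p = 0.112). Their 95% intervals ran from 0.18 to 1.12, from -1.07 to -0.12 and from 0.09 to 1.44. Single arrays moved these values: CYP71B23 was 0.41 without dez high-Zn replicate 2 (adjusted p = 0.334) and was called without dez high-Zn replicate 1 (1.12, adjusted p = 0.0214) or wild-type high-Zn replicate 1 (1.00, adjusted p = 0.0454). CYP71B34 was -0.36 without wild-type high-Zn replicate 1 (adjusted p = 0.192) and -0.83 without wild-type high-Zn replicate 2, where it was called (adjusted p = 0.012). CYP71B6 was called without dez high-Zn replicate 2 (0.80, adjusted p = 0.0491) or wild-type high-Zn replicate 1 (0.79, adjusted p = 0.0312). The calls in dez and their absence in wild type therefore do not by themselves show that the genotypes differed in response to zinc. CYP71B29 had the smallest interaction, -0.07 ± 0.15, with an interval from -0.40 to 0.26.

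**Figure D2:**
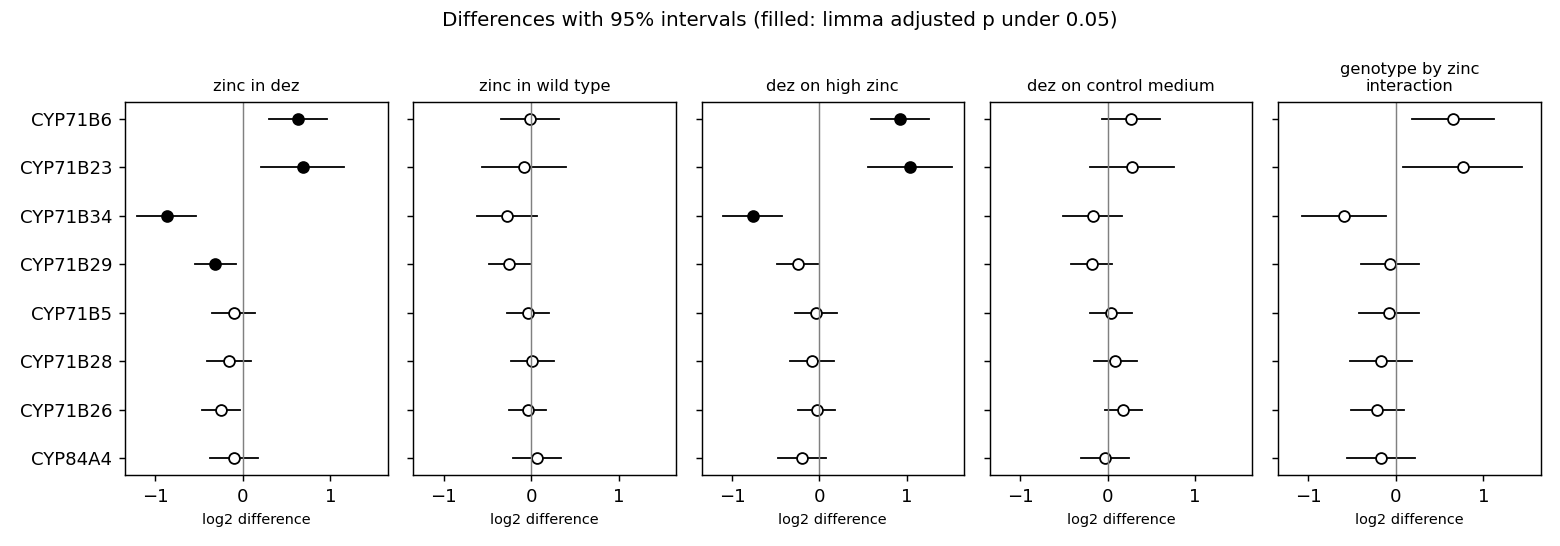
Log2 differences of the 8 genes (rows) in the 5 comparisons (panels), with 95% intervals from limma; filled points have an adjusted p under 0.05. Zinc in dez has 4 filled points and dez on high zinc has 3, with CYP71B6 and CYP71B23 to the right of 0 and CYP71B34 to the left, and the other 3 panels have none. Under poly-A spike scaling CYP71B34 in dez on high zinc was at 0.05 and CYP71B29 with zinc in dez at 0.10.

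Set against wild type on high zinc, dez had 3 of the 8 genes called, where 42.8% of all tested probe sets were called, 22.2% higher and 20.7% lower. CYP71B6, the indole-3-acetonitrile enzyme, was higher by 0.92 ± 0.15 (limma adjusted p = 6.81e-04), a mean of 591 ± 91.1 in dez against 304 ± 44.0 in wild type (SD, n = 2 each). CYP71B23 was higher by 1.04 ± 0.22 (limma adjusted p = 0.00309), and by 0.68 without dez high-Zn replicate 2, with means of 207 ± 76.2 in dez and 90.6 ± 24.4 in wild type. Both kept their direction and their call under all 20 alternatives tried. CYP71B34 was lower, at -0.76 ± 0.15 (limma adjusted p = 0.00248), with 42.5 ± 5.22 in dez and 84.5 ± 23.1 in wild type, a difference that was 0.05 under poly-A spike scaling (adjusted p = 0.908). CYP71B29 had a difference of -0.25 ± 0.11 without overlap of its arrays and did not pass (limma adjusted p = 0.081). The other 4 genes lay between -0.20 for CYP84A4 and -0.03 for CYP71B26, and with poly-A spike scaling these 4 and CYP71B29 lay above 0, from 0.56 to 0.78, not called. This comparison shares its dez high-zinc arrays with that of zinc in dez, so the same arrays stand behind both sets of calls.

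On control medium, dez and wild type differed in none of the 8 genes by limma's adjusted p, and in none at an unadjusted p under 0.05, where 9.58% of all tested probe sets were called, 4.2% higher and 5.39% lower. The arrays did not overlap for 6 of the genes, but the differences were small. The shares of all tested probe sets without overlap and at an unadjusted p under 0.05 were not counted, so neither count is read as a result. CYP71B6 differed by 0.27 ± 0.15 (limma adjusted p = 0.295), CYP71B23 by 0.28 ± 0.22, CYP71B26 by 0.18 ± 0.10, CYP71B29 by -0.18 ± 0.11 and CYP71B34 by -0.17 ± 0.15. With poly-A spike scaling all 8 lay above 0, from 0.30 to 0.76. The median of the 7 CYP71B genes was 0.09, against 0.03 over all tested probe sets. In the order of the group means, CYP71B6 and CYP71B23 had dez on high zinc first and dez on control medium second, with the wild-type groups below and overlapping each other. As deposited, CYP71B29 had dez on high zinc last and wild type on control medium first, with dez on control medium and wild type on high zinc between them.

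Several of the genes lie near each other, and calls in both directions occurred within 1 run of loci. In the gene order of RefSeq's TAIR10.1 annotation, 18 of 25 successive loci on chromosome 3 are P450 loci of CYP71B, of which 11 have a probe set of their own and 3 are among the 8 genes. CYP71B23 is locus 9 of the 25 in this run, between CYP71B22 and CYP71B3. CYP71B26 and CYP71B34 lie further along and are separated only by CYP71B33, which RefSeq lists as a transcribed pseudogene. With zinc in dez CYP71B23 rose, CYP71B34 fell and CYP71B26 was not called, at 0.68, -0.87 and -0.25. CYP71B28 and CYP71B29 are direct neighbours on chromosome 1, with zinc differences in dez of -0.16 and -0.32, of which the second was called. Probe sets of near-identical copies can share signal, and whether they did here was not tested.

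The 14 P450 genes below the intensity limit had dim probe sets, from 3.73 to 23.6 on any array. Just inside the limit, a mean log2(intensity + 16) of 5.25, was CYP84A4 at 5.58, and just outside were CYP51G2 at 5.15, listed by RefSeq as a transcribed pseudogene, and CYP78A9 at 5.07, a relative of the organ-size gene KLU. All 8 members were above the limit in each of the 4 group means, so none entered through 1 group. CYP71B35, the next locus after CYP71B34, had 6.27 and 5.72 in dez on high zinc and 9.39 and 10.4 in dez controls, against 9.53 and 9.02 in wild type on high zinc and 10.02 and 10.9 in wild-type controls. CYP71B24, the next but 1 after CYP71B23, had 5.21 and 8.34 in dez on high zinc, and from 3.84 to 4.58 on the other arrays. In the fit of all probe sets with no limit, where reading these dim genes was decided after seeing the data, CYP71B35 had a zinc difference in dez of -0.23 ± 0.04 (limma adjusted p = 0.0020) and CYP71B24 one of 0.18 ± 0.05 (adjusted p = 0.0235). No background level is known for these intensities, so these values may lie within it. No others of the 14 genes were called for zinc in dez, where 22.2% of all probe sets in that fit were. CYP71B22, directly before CYP71B23, had a difference of -0.12 ± 0.07. CYP71B29 was not called in the fit without the limit (limma adjusted p = 0.0725). Poly-A spike scaling was not applied to the 14 genes.

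**Figure D3:**
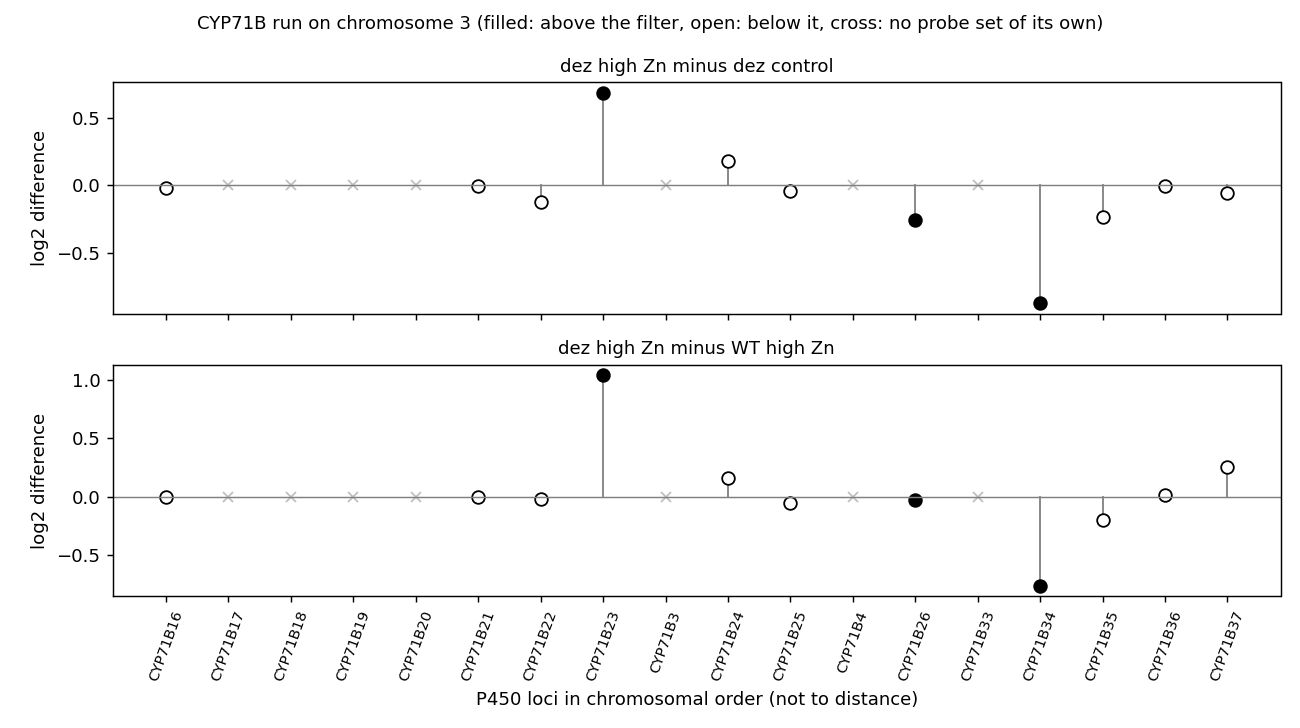
Log2 differences of the CYP71B loci of the run on chromosome 3, in chromosomal order and not to distance, for zinc in dez (upper panel) and dez against wild type on high zinc (lower panel), from the fit without the intensity limit. Filled points are the 3 genes above the limit, open points the 8 below it, and crosses mark loci without a probe set of their own, which have no value. CYP71B23 stands at 0.68 and 1.04 and CYP71B34 at -0.87 and -0.76, and CYP71B34 was at -0.46 and 0.05 under poly-A spike scaling.

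Partner genes of these pathways were also few. Of 209 symbols listed for the pathways in which *Arabidopsis* P450s act, 15 had a probe set of their own and 10 were tested. With zinc in dez, 7 of the 10 rose, none fell and 3 were not called, against the 16.6% of all tested probe sets that rose. The lists were chosen with earlier results of these data known. The partner counts here and below therefore do not test whether partners moved more than other genes. UGT74B1, a glucosyltransferase of glucosinolate synthesis and the 1 tested partner in tryptophan-derived defence, had 320 and 307 in dez on high zinc and 149 and 148 in dez controls, against 103 and 81.1 in wild type on high zinc and 88.8 and 92.6 in wild-type controls. Its zinc difference in dez was 1.00 ± 0.12 (limma adjusted p = 1.35e-04), its interaction was 0.99 ± 0.17 (adjusted p = 0.00241), and dez was already higher on control medium, by 0.63 ± 0.12 (adjusted p = 0.00891). HCT, a shikimate ester transferase of the phenylpropanoid pathway, had 1145 and 1083 in dez on high zinc, against 480.4 and 453 in dez on control medium, and rose by 1.23 ± 0.11 (adjusted p = 2.35e-05), while CYP84A4 of a branch of that pathway was not called. GID1B, a gibberellin receptor, rose by 0.56 ± 0.12 (adjusted p = 0.00412), and GID1A and GID1C, at -0.13 and -0.19, were not called. The other genes that rose were F6'H1, BGLU42 and PYE of the iron deficiency list and FACT of the wax list. On high zinc dez was higher than wild type in 6 of the 10 and lower in FACT, where 22.2% of all tested probe sets were higher and 20.7% lower. Wild type on high zinc was higher than on control medium in 1 of the 10, FACT, where 0.462% of all were higher, and on control medium dez was higher in 2, UGT74B1 and F6'H1, where 4.2% of all were higher.

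Other measures moved with the same arrays. The mean log2 intensity of the poly-A spike controls was 6.77 ± 0.23 in dez on high zinc, 7.18 ± 0.14 in dez controls, 7.58 ± 0.40 in wild type on high zinc and 7.67 ± 0.34 in wild-type controls (SD, n = 2 each). Scaling to them moves the median of all probe sets to 0.42 for zinc in dez and 0.84 for dez on high zinc. This scaling shifts all differences of a comparison by the same amount. Values relative to that median therefore restate the deposited ones and give no separate support. They were -0.88 and -0.79 for CYP71B34, -0.32 for CYP71B29 with zinc in dez, and 0.63 and 0.90 for CYP71B6. Without taking off that median, CYP71B6 was at 1.05 and 1.73 and CYP71B23 at 1.096 and 1.85, all called. For actin and GAPDH, whose 3' ends read above their 5' ends where RNA is broken or labelled short, the 3'-5' log2 difference was 1.202 ± 0.015 in dez on high zinc, 1.46 ± 0.15 in dez controls, 1.59 ± 0.11 in wild type on high zinc and 1.78 ± 0.30 in wild-type controls. The log2 intensity of the 25S ribosomal RNA control was 8.79 and 10.5 in dez on high zinc, 7.84 and 8.52 in dez controls, 6.60 and 6.51 in wild type on high zinc, and 5.49 and 6.47 in wild-type controls, so all 4 dez arrays lay above all 4 wild-type arrays. With the 3'-5' difference as a covariate CYP71B6 kept both calls, while CYP71B23 with zinc in dez (0.76, adjusted p = 0.0787), CYP71B29 with zinc in dez (-0.23, adjusted p = 0.244) and CYP71B34 in dez on high zinc (-0.59, adjusted p = 0.091) lost theirs.

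Of the tissue markers, 2 of 10 for the etiolated shoot had a probe set of their own, PORB and LHCB4.2, with a summed intensity of 1144 to 1379 in dez on high zinc, 2946 to 3060 in dez controls, 4001 to 4189 in wild type on high zinc and 3747 to 3837 in wild-type controls. Both fell with zinc in dez. The 3 of 20 root markers with a probe set of their own summed to 3096 on each array of dez on high zinc, 3679 to 3768 in dez controls, 2854 to 3430 in wild type on high zinc and 3726 to 3899 in wild-type controls, almost all of it from PYK10. PYK10 differed by -0.28 with zinc in dez (limma adjusted p = 0.0499), just under the threshold. In wild type its zinc difference was of like size, at -0.29 (limma adjusted p = 0.285), and its interaction was 0.006. The other root markers were below the intensity limit and highest in dez on high zinc, EXPA7 at 14.2 and 28.2 against 10.2 and 8.80 in dez controls, and EXPA18 at 20.2 and 37.7 against 11.7 and 12.3 in dez controls. The seed marker OLEO3, the 1 of 14 that could be read, had 27.3 and 24.6 in dez on high zinc, against 92.3 and 61.9 in dez on control medium. The anther marker AMS, 1 of 7, stayed between 4.40 and 5.56 on all arrays. The part of these shifts in the P450 differences was not tested.

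**Figure D4:**
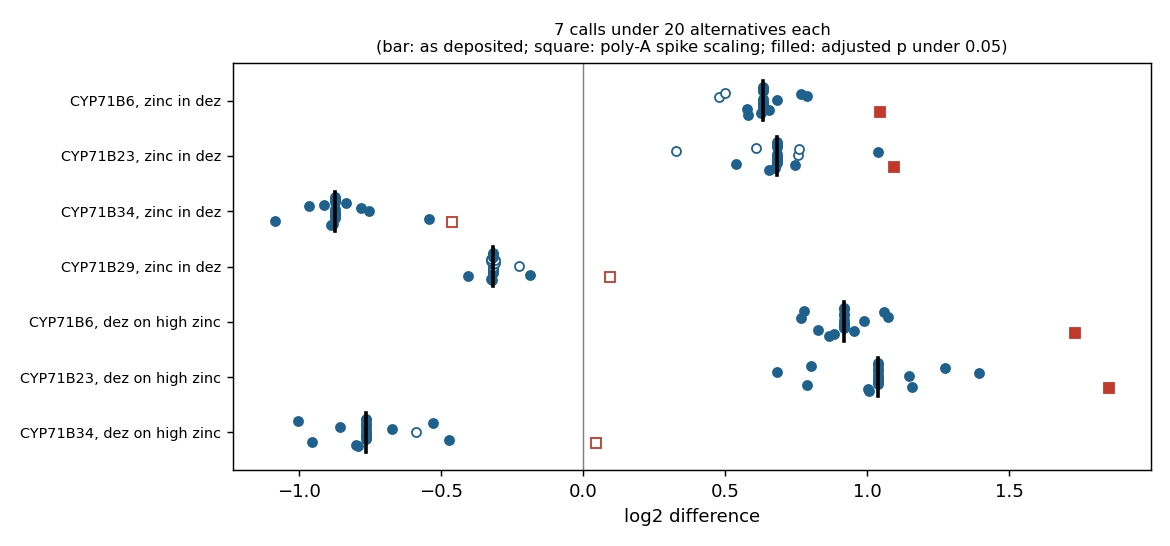
The 7 calls of P450 genes (rows) under 20 alternative ways of processing each, as log2 differences on the horizontal axis. The black bar is the value as deposited, red squares are poly-A spike scaling, and filled symbols have an adjusted p under 0.05. CYP71B6 and CYP71B23 in dez on high zinc stay filled throughout, and CYP71B34 in dez on high zinc moves to 0.05 and CYP71B29 with zinc in dez to 0.10 under spike scaling.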

How the data were processed

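The authors deposited 1 linear intensity per probe set and array, made with MAS5 per the submitters' processing notes, the scaling being not given in the sources used here. Of 22810 probe sets, 64 controls were set aside. The remaining intensities were used as log2(intensity + 16), a scale that shrinks differences between low values, and probe sets in the upper 60% by mean (13648) were tested. The 4 groups were fitted together over the 8 arrays in limma 3.58.1 (R 4.3.3; lmFit, contrasts, then eBayes with a mean-variance trend; 4 residual and 6.28 prior degrees of freedom). Each comparison was tested in both directions and adjusted by Benjamini and Hochberg's method over all tested probe sets, and the code was tested on simulated data. The p-values measure the spread between the labelled biological replicates. No label ties replicate numbers across groups, so no block was fitted. Genes were named through the platform annotation, which gave 13513 probe sets to 1 gene, and RefSeq symbols. Each of the 22 P450 genes had 1 probe set. Members and lists were chosen with earlier results of these data known. Any member could be named, and full statistics went to called members whose arrays did not overlap and to members with a listed role. Alternatives were other scalings, pseudocounts, limits and priors, a replicate block, a 3'-5' covariate, a fit of the 4 arrays compared, and each array left out.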

Additional observations from a re-analysis of the deposited data

Results flagged for a closer look

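P450 probe sets that the naming rule left out carried signal that no comparison above used, and they were picked after their values were seen. The probe set shared by CYP71B20 and CYP71B19, neighbours in the chromosome 3 run whose RNAs it cannot separate, had 15.1 and 19.0 in dez on high zinc, 18.7 and 16.9 in dez on control medium, 60.4 and 42.9 in wild type on high zinc, and 71.3 and 79.0 in wild type on control medium. It was lower in dez on both media, with log2 differences of -1.43 ± 0.13 on control medium (limma adjusted p = 2.00e-04) and -1.02 ± 0.13 on high zinc (adjusted p = 1.48e-04). Each was called in 18 of 19 alternatives, and under poly-A spike scaling they were -0.95 (adjusted p = 0.168) and -0.21 (adjusted p = 0.593). The dez arrays of this shared probe set all lay below an intensity of 22.1, which equals the limit, so its wild-type arrays carried it into the tests. No background level is known for these intensities, so its dez values may lie within it. None of the 8 genes was called on control medium. CYP718, a P450 whose name has no subfamily letter, had 31.7 and 26.4 in dez on high zinc, 19.4 and 18.5 in dez on control medium, 19.1 and 18.9 in wild type on high zinc, and 24.6 and 20.5 in wild type on control medium. It rose with zinc in dez by 0.36 ± 0.10 (adjusted p = 0.015) and was higher in dez on high zinc by 0.36 ± 0.10 (adjusted p = 0.0126). Its interaction of 0.50 ± 0.14 passed (limma adjusted p = 0.0278), and 11 of 17 alternatives gave that call. Because CYP718 was picked after its values were seen, this call is not read as a shown difference between the genotypes. Without dez high-Zn replicate 1 none of the 3 was called, at 0.28, 0.28 and 0.42 (adjusted p = 0.0962, 0.0814 and 0.0859). The zinc call was also lost without dez control replicate 1 (adjusted p = 0.0663) or 2 (0.0945). With poly-A spike scaling the zinc difference was 0.78 (adjusted p = 0.16) and the interaction 0.83 (adjusted p = 0.743), both not called, and the difference on high zinc was 1.17 (adjusted p = 0.00405). The interaction was also not called without dez control replicate 1 (0.52) or 2 (0.48), wild-type high-Zn replicate 2 (0.50) or wild-type control replicate 1 (0.42). The mean log2(intensity + 16) of CYP718 was barely above the limit of 5.25, which equals an intensity of 22.1. Its arrays of dez on control medium and of wild type on high zinc lay below that. CYP718 thus entered the tests through the arrays of dez on high zinc, where it was high, and its calls give no separate support. Each interaction was tested among all probe sets, and no group had the 4 arrays needed to look for single arrays far from the others.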

How the results depend on the processing

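With 2 arrays a group, single arrays decided several calls. Leaving out each array in turn, the count of called genes ran from 1 to 4 for zinc in dez and from 0 to 2 for the interaction, and it was 3 each time for dez on high zinc and 0 each time for zinc in wild type and dez on control medium. For zinc in dez it was 1 without dez control replicate 2 and 2 without any 1 of the other dez arrays; the interaction had 2 calls without wild-type high-Zn replicate 1 and 1 without wild-type high-Zn replicate 2 or either dez high-Zn array. The count for zinc in dez was 2 under poly-A spike scaling (CYP71B6 and CYP71B23, both higher) and 2 with the 3'-5' covariate, against 4 as deposited. The share of all tested probe sets called fell too, to 8.47% and 25.8%, against 34% as deposited. Under spike scaling 23 of the 40 differences of the 8 genes over the 5 comparisons changed sign, 5 with zinc in dez, 4 with zinc in wild type, 6 in dez on high zinc, 3 on control medium and 5 in the interaction, and none of the 23 was called there. Among those with an unadjusted p under 0.05 as deposited, CYP71B29 with zinc in dez came to 0.10, CYP71B26 with zinc in dez to 0.16, CYP71B34 in dez on high zinc to 0.048 and CYP71B29 in dez on high zinc to 0.56. In that scaling 91.5% of calls over all probe sets were higher for zinc in dez and 98.2% for dez on high zinc, against 48.9% and 51.8% as deposited. The cause was not tested. For the interaction, 1 gene (CYP71B6) was called with median centring (adjusted p = 0.0453) and 1 with the replicate block (adjusted p = 0.0436). The block took the CYP71B29 call for zinc in dez to adjusted p = 0.0571. No label says whether the replicate numbers pair samples, and the correlations of replicate deviations between groups cannot settle it. They lay between -0.36 and 0.37 in the 6 pairs of groups, over 0.1 in 1, dez controls with wild-type controls. Counting all 22 P450 genes without a limit, added after seeing the data, gave 6 for dez on high zinc against 3 of 8, where 28.3% of all probe sets were called in that fit. Averaging probe sets per gene could not differ, with 1 for each gene. The spread was pooled over groups, and dim genes limit what could be detected.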
